A study of Mus musculus with 24 samples.

Results

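The 9 genes described here encode secreted inflammatory mediators that fibroblasts are known to make: the chemokines *Ccl2*, *Ccl5*, *Ccl7*, *Cxcl1*, *Cxcl5*, *Cxcl10* and *Cxcl12*, the cytokine *Il6* and the growth factor *Csf1*. The rule takes them by gene name among the 55487 genes of the table. Of the 9, 8 passed the filter on low counts and were tested among 15401 genes, and *Il6* did not pass. The mRNA came from mouse embryonic fibroblasts (MEFs) of 2 genotypes, wild type (WT) and *tfeb tfe3* double knockout (DKO), named for the loss of the transcription factors TFEB and TFE3 that switch on lysosomal and autophagy genes. Cells of each genotype received the vehicle DMSO, torin1, an inhibitor of the kinase MTOR, or MK-8722, an activator of the energy sensor AMPK. Each of the 6 groups held 4 libraries, 1 per passage, at passages 7, 8, 9 and 11 in WT and 8, 9, 10 and 11 in DKO. The labels give passages but neither age nor separate derivations of the MEFs, and the cells of both genotypes came from another laboratory, so a difference between genotypes cannot be told apart from one between lines. The comparisons ask how inhibition of MTOR and activation of AMPK act on these transcripts, and whether the response differs where TFEB and TFE3 are missing.

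Chemokines are small proteins that guide cells bearing matching receptors. CCL2 and CCL7 draw monocytes through CCR2, CXCL1 and CXCL5 draw neutrophils through CXCR2, CCL5 draws T cells and monocytes, and CXCL10 draws T cells through CXCR3 and is a classic product of interferon signalling. CXCL12, a major product of stromal fibroblasts, holds stem cells and lymphocytes in place through CXCR4, and ACKR3 scavenges it. CSF1 keeps macrophages alive through CSF1R, and IL6 acts through IL6RA and IL6ST on STAT3. Many of these genes are switched on by NF-kB, *Cxcl10* and *Ccl5* also by interferon regulatory factors, and several of the mRNAs are short-lived.

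On GRCm38, *Ccl2* (chr11:82035571-82037453, + strand), *Ccl7* (chr11:82045712-82047525, +) and *Ccl5* (chr11:83525778-83530518, -) lie in the Ccl cluster of chromosome 11. *Cxcl5* (chr5:90759360-90761624, +), *Cxcl1* (chr5:90891241-90893115, +) and *Cxcl10* (chr5:92346638-92348889, -) lie on chromosome 5, as does *Il6* (chr5:30013114-30019981, +). *Cxcl12* is at chr6:117168535-117181367 (+) and *Csf1* at chr3:107741048-107760469 (-). All 9 are annotated as protein coding.

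Promoters of 5 of the 9 genes were in the RefSeq table for GRCm38.p6, 300 bases each. The stretch from position -220 to -41 of the start is printed for 3 genes whose mRNAs behaved differently: *Cxcl10*, which stood apart in the WT libraries of passage 11, *Cxcl1*, which fell under MK-8722, and *Cxcl12*, which was higher in every DKO library than in any WT library. Letters in capitals are matches to an NF-kB site, the ISRE core (GAAANNGAA, bound by interferon regulatory factors) or an AP-1 site (TGANTCA), searched on both strands and written 5′ to 3′ on the gene's strand.
Cxcl10, chr5:92348930-92349109, - strand: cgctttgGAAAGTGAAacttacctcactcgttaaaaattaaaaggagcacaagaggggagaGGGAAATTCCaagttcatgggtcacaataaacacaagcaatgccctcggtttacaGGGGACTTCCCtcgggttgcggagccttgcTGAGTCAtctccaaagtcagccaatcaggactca
Cxcl1, chr5:90891025-90891204, + strand: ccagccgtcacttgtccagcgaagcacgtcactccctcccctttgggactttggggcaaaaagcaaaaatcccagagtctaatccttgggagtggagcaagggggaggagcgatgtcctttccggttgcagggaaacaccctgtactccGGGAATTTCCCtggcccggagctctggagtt
Cxcl12, chr6:117168315-117168494, + strand: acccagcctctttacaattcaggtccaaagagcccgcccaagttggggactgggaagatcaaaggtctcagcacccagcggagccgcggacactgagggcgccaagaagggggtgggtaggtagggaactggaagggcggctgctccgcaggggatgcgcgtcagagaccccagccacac

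The *Cxcl10* stretch holds an ISRE core, overlapping NF-kB matches, a further NF-kB match and an AP-1 site, *Cxcl1* holds overlapping NF-kB matches, and *Cxcl12* holds none of these letters. The promoters not printed are those of *Csf1* and *Il6*. That of *Csf1*, which was also higher in every DKO library than in any WT library, holds an NF-kB match. That of *Il6* holds an NF-kB match and an AP-1 site. Among 32544 RefSeq promoters of the same 300 bases, 8.49% held an NF-kB site, 8.53% an ISRE core and 7.79% an AP-1 site. The CLEAR core that TFEB and TFE3 bind (TCACGTGA) was found in 0.983% of all promoters and in none of the 5 at hand. Such matches are descriptions of letters, and binding was not measured here.

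Libraries held 24668921 to 33332562 counts, and RNA integrity numbers were 9.7 to 9.9 but for 1 library at 7.9, DKO MK-8722 of passage 10. Without that library the same number of genes (3) was called under MK-8722 in DKO, and the values of *Cxcl12*, *Cxcl5* and *Cxcl1* were -0.41, -1.30 and -0.83. *Tfeb* was lower in DKO than in WT under DMSO, at a mean of 2.25 against 22.9 CPM (counts scaled to library size), while *Tfe3* stood at 124 against 120 CPM, so total *Tfe3* mRNA does not check that label. Of 12 fibroblast markers 11 were tested, and their summed level was 6609 to 10471 CPM. Much of that sum came from *Vim* (2066 to 3555 CPM), *Fn1* (1211 to 3787 CPM) and *Col1a1* (754 to 3343 CPM). Other markers of the list were low or uneven: *Pdgfra* ranged from 4.21 to 177 CPM, *Thy1* from 0 to 4.51 CPM and *Dcn* from 0 to 1.14 CPM. *Lum*, which was not tested, had at most 2 counts in a library. Of 12 leukocyte markers 3 were tested (*Cd68*, *Cd14* and *Csf1r*), with a summed level of 10.2 to 25.3 CPM, and *Adgre1* and *Tyrobp* had 0 counts in every library. The leukocyte sum reached 21.3 to 25.3 CPM in WT MK-8722 and 11.9 to 13.3 CPM in WT DMSO. Of the 3 markers 1 was called higher in that comparison and 0 lower, against 10.3% and 5.87% of all genes. Over all libraries *Cd68* ranged from 1.54 to 14.3 CPM and *Cd14* from 5.76 to 10.7 CPM, with *Csf1r* at most at 0.645 CPM. The part of this sum in the results on *Ccl2* and *Ccl7* was not tested. Of 5 epithelial and 4 endothelial markers 4 and 1 were tested, and their sums stayed at or under 14.5 and 1.37 CPM. The epithelial sum was 2.80 to 4.58 CPM in WT DMSO, 5.62 to 7.45 CPM in WT torin1, 2.99 to 4.87 CPM in DKO DMSO and 9.88 to 14.5 CPM in DKO torin1, and the endothelial sum 0.170 to 0.391 CPM in WT DMSO and 0.967 to 1.37 CPM in WT MK-8722. Of the epithelial markers *Krt8* reached 14.2 CPM, while *Epcam*, *Cdh1* and *Krt18* stayed at or under 1.86 CPM. In DKO against WT under DMSO, 1 of the 4 was called higher and 3 lower, against 23.5% and 24.6% of all genes. Under torin1 the counts were 1 and 2, against 24% and 27.8%. The part of the epithelial and endothelial markers in the results was not tested. In such bulk samples, fewer cells that make a transcript and less of it per cell cannot be told apart.

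The 3 WT libraries of passage 11 stood apart for most of the genes. Under every treatment, 6 of the 8 genes were higher there than in all WT libraries of passages 7, 8 and 9, against 11% of all genes tested above and 10.6% below, and 0 of the 8 were below. *Cxcl10* was 4.86-fold, 3.98-fold and 5.50-fold above the mean of the other passages under DMSO, torin1 and MK-8722. *Ccl5* was 3.01-fold, 2.70-fold and 3.17-fold above, *Ccl7* 2.56-fold, 1.55-fold and 3.03-fold, and *Ccl2* 1.68-fold, 1.55-fold and 2.17-fold. The excess was smaller for *Cxcl5* (1.32-fold to 1.81-fold) and for *Csf1* (1.16-fold to 1.25-fold), and *Cxcl1* and *Cxcl12* did not lie above all other passages under every treatment. Of 20 interferon-responsive genes listed beside them, 20 were above in the same libraries, as were 8 of 11 fibroblast markers. The WT libraries of passage 11 had been singled out in earlier results of the same data, so these ratios are a description, and each result below that turns on them is given with and without them. In DKO, passage 11 was also the highest for *Ccl2*, *Ccl5* and *Ccl7* under every treatment, and for *Cxcl10* under DMSO and torin1. For *Ccl2* under DMSO, DKO libraries ranged from 47.5 CPM to 110 CPM, the latter at passage 11. *Cxcl12* was lowest there under every treatment, and *Csf1* under DMSO and MK-8722. Fits without passage 11 in WT kept it in DKO, so their genotype comparisons are unbalanced in passage.

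**Figure D1:**
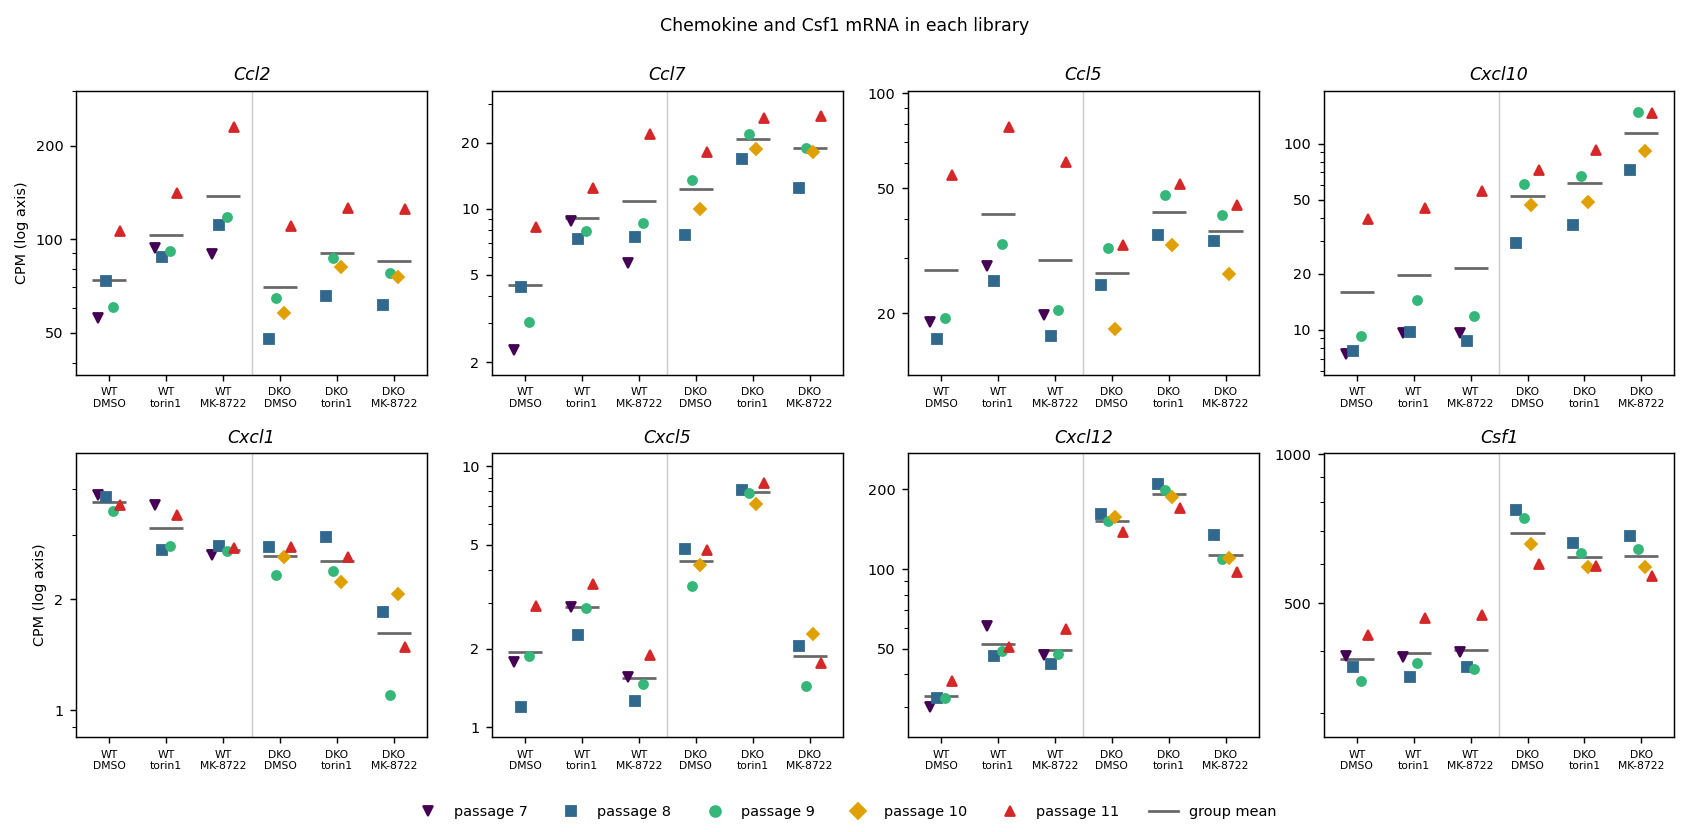
Level of each tested gene in every library, in CPM on a log axis, by group; the symbol marks the passage and the grey bar the mean of 4 libraries. Passage 11 (red triangles) is highest in WT for *Ccl2*, *Ccl7*, *Ccl5*, *Cxcl10*, *Cxcl5* and *Csf1*, while *Cxcl12* separates by genotype, from 30.2 to 60.7 CPM in WT and from 97.5 to 211 CPM in DKO.

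Per length, *Csf1* was the most abundant of the 9, with a mean level of 314 TPM (transcript abundance scaled for length and depth) over all 24 libraries. *Ccl2* followed at 209 TPM, *Ccl5* at 132 TPM, *Cxcl10* at 91.7 TPM, *Cxcl12* at 61.1 TPM and *Ccl7* at 29.4 TPM. The neutrophil attractants were scarce, *Cxcl1* at 4.52 TPM and *Cxcl5* at 3.41 TPM. *Il6* was close to absent, at 0.295 TPM. In WT DMSO cells alone the order began with *Csf1* (226 TPM ± 20.9, SD, n = 4) and *Ccl2* (163 ± 48.9), and *Cxcl10* (32.9 ± 32.6), *Cxcl12* (20.9 ± 2.37) and *Ccl7* (10.2 ± 5.98) came after *Ccl5* (104 ± 68.1). The order differed between groups: in DKO MK-8722, *Cxcl10* (223 ± 72.7) was above *Ccl2* (187 ± 63.4) and *Ccl5* (139.6 ± 31.7).

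A gene counts as changed where edgeR's quasi-likelihood test gave a p under 0.05 after Benjamini-Hochberg adjustment and the fold was 1.2 or more. Over all genes, libraries of 1 genotype and passage correlated in their deviations from the group means by 0.02 to 0.66 in 24 pairs, 17 of them over 0.1, so each comparison is also given with passage as a block, which for the drugs sets drug against vehicle at the same passage. Libraries of the same passage but other genotype correlated by -0.08 to 0.16, with 6 of 27 pairs over 0.1, so blocked values between genotypes rest on a shared passage number that these correlations do not bear out as a pairing. Under torin1 in WT, 3 of 8 genes rose and 0 fell, where 26.6% of all genes tested were called higher and 20.5% lower. With the block, 6 rose and 0 fell, against 28.5% and 21.2%. In DKO under torin1, 2 rose and 0 fell, against 23% higher and 20.2% lower, and with the block 5 rose and 0 fell, against 24.9% and 20.9%. Without the block, the members called higher were not far from these shares. Among those not called, *Cxcl1* was below DMSO at all 4 passages in WT and *Csf1* at all 4 in DKO.

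Under MK-8722 in WT, 3 genes rose and 1 fell, against 10.3% called higher and 5.87% lower. With the block, 4 rose and 1 fell, against 11.6% and 7.29%. In DKO, 0 rose and 3 fell, against 5.47% and 3.21%, and with the block 4 rose and 3 fell, against 7.49% and 4.24%. The response to torin1 was not called different between genotypes for any of the 8 in edgeR or DESeq2 (1, *Cxcl12*, had an unadjusted p under 0.05), where 4.68% of all genes had a larger and 6.33% a smaller response in DKO. With the block it was 0 larger and 1 smaller, against 6.74% and 8.63%. For MK-8722, 0 had a larger and 1 a smaller response in DKO, against 1.42% and 4.08%, and with the block 2 larger and 3 smaller, against 3.16% and 5.88%.

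Between genotypes, 5 genes were higher and 1 lower in DKO under DMSO, where 23.5% of all genes were called higher and 24.6% lower. Under torin1, 5 were higher and 0 lower, against 24% and 27.8%. Under MK-8722, 3 were higher and 2 lower, against 23.3% and 25.4%. With passage as a block over the shared passages, the counts were 5 and 1 under DMSO (against 24% and 24.8%), 5 and 1 under torin1 (against 24.4% and 27.9%) and 4 and 2 under MK-8722 (against 23.9% and 25.4%). The median log2 fold change of the 8 genes in DKO against WT was 0.99 under DMSO, 0.92 under torin1 and 0.47 under MK-8722, beside -0.01, -0.04 and -0.01 over all genes tested. The 3 comparisons of genotypes share no library, but each shares its libraries with the drug comparisons.

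**Figure D2:**
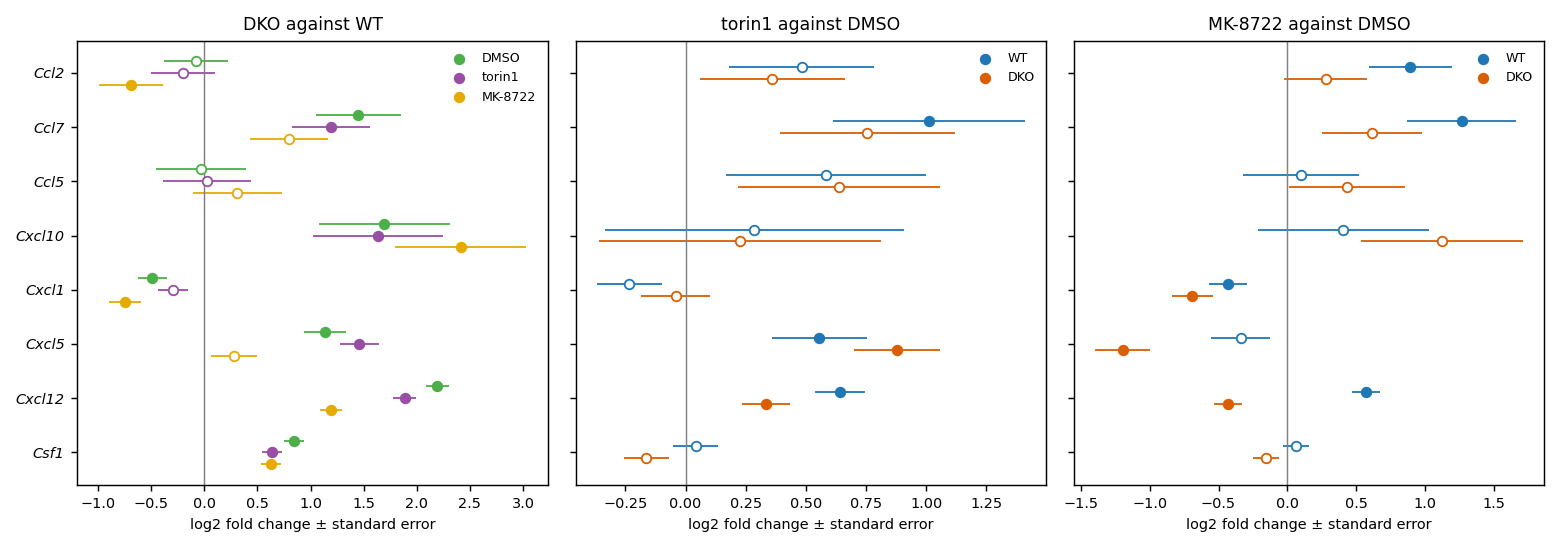
Log2 fold change with its standard error for each gene, DKO against WT (left), torin1 against DMSO (middle) and MK-8722 against DMSO (right), from the fit without a block; filled points were called and open points were not. *Cxcl12* is far above 0 in all 3 comparisons of genotypes, and under MK-8722 it lies above 0 in WT (0.57) and below 0 in DKO (-0.43).

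*Ccl2*, the main monocyte attractant of the set, rose under MK-8722 in WT. Across passages 7, 8, 9 and 11, WT cells held 55.8, 73.3, 60.5 and 106 CPM of *Ccl2* under DMSO, 93.6, 87.4, 91.3 and 141 CPM under torin1 and 89.8, 111, 118 and 231 CPM under MK-8722. Across passages 8, 9, 10 and 11, DKO cells held 47.5, 64.7, 57.8 and 110 CPM under DMSO, 65.5, 87.2, 81.4 and 126 CPM under torin1 and 61.2, 78.0, 75.7 and 125 CPM under MK-8722. The 6 groups overlapped, yet at every passage both drugs lay above the vehicle. The log2 fold change under MK-8722 was 0.89 ± 0.30 (SE, n = 4 per group, edgeR adjusted p = 0.0271) in WT and 0.28 ± 0.30 (adjusted p = 0.578) in DKO. It was 0.48 ± 0.30 (adjusted p = 0.174) under torin1 in WT and 0.36 ± 0.30 (adjusted p = 0.325) in DKO. With passage as a block, the SE fell to 0.08 and all 4 responses were called: 0.86 (adjusted p = 3.12e-08) and 0.30 (adjusted p = 0.00941) under MK-8722 and 0.50 (adjusted p = 1.31e-05) and 0.39 (adjusted p = 0.000371) under torin1.

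*Ccl2* in DKO and WT differed little under DMSO, by -0.08 on the log2 scale (95% interval -0.70 to 0.55). The difference turned to 0.15 without the WT libraries of passage 11, those of DKO being kept. Under MK-8722 it was lower in DKO, by -0.69 ± 0.30 (adjusted p = 0.0496), at a mean of 85.1 against 137 CPM. That call was lost with DESeq2's Wald test (-0.70, adjusted p = 0.0541) and, in edgeR, without passage 11 in WT (-0.32, adjusted p = 0.259). Without passage 11 in WT, the rise under MK-8722 in WT was kept (0.75, edgeR adjusted p = 0.0393). With the block, the difference under torin1 was called too (-0.28, adjusted p = 0.0343), and the response to MK-8722 was smaller in DKO, by -0.56 (adjusted p = 0.00177), and by -0.46 (adjusted p = 0.00503) with the block and without passage 11 in WT. Leaving out 1 library also ended calls without the block: the rise under MK-8722 in WT missed the threshold without any of 3 DMSO libraries (passages 7, 8 and 9) or without the MK-8722 library of passage 11 (0.52, adjusted p = 0.178). The lower level in DKO under MK-8722 missed it without the DKO library of passage 8, 9 or 10 (-0.56, -0.65 and -0.65) or the WT library of passage 9 or 11 (-0.76 and -0.32).

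*Ccl7*, which shares the receptor CCR2 with *Ccl2* and lies beside it, was scarcer in WT and followed the same drugs. WT levels were 2.27, 4.40, 3.03 and 8.28 CPM under DMSO, 8.78, 7.31, 7.94 and 12.4 CPM under torin1 and 5.64, 7.42, 8.57 and 21.8 CPM under MK-8722. DKO levels were 7.60, 13.5, 10.0 and 18.1 CPM under DMSO, 16.9, 21.9, 18.8 and 25.9 CPM under torin1 and 12.5, 18.8, 18.1 and 26.4 CPM under MK-8722. Under torin1, the DKO libraries all lay above the WT libraries. *Ccl7* rose 2.01-fold under torin1 (log2 1.01 ± 0.40, adjusted p = 0.0329) and 2.41-fold under MK-8722 (1.27 ± 0.40, adjusted p = 0.0178) in WT. In DKO the changes were 0.76 ± 0.36 (adjusted p = 0.0825) and 0.62 ± 0.37 (adjusted p = 0.26). With the block they were called in DKO as well, at 0.79 (adjusted p = 6.28e-05) and 0.63 (adjusted p = 0.00206), beside 1.09 and 1.25 in WT.

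*Ccl7* was 2.73-fold higher in DKO than in WT under DMSO (adjusted p = 0.00294) and 2.29-fold higher under torin1 (adjusted p = 0.00686). Under MK-8722 the difference was 0.80 ± 0.37 (adjusted p = 0.0627) on the log2 scale. That last difference was called with the block (0.79, adjusted p = 0.00189). Without passage 11 in WT but with it in DKO, where it was highest, the differences became 1.96, 1.38 and 1.38 under the 3 treatments, all called. No difference of the *Ccl7* responses between genotypes was called (-0.26 for torin1 and -0.65 for MK-8722, adjusted p = 0.819 and 0.623, and -0.31 and -0.63 with the block). Without passage 11 in WT, drug and DMSO libraries together, both rises were kept (1.33, adjusted p = 0.00136, and 1.18, adjusted p = 0.0107). Without the block, they depended on single libraries: leaving out the passage 11 drug library gave 0.82 (adjusted p = 0.104) for torin1 and 0.68 (adjusted p = 0.169) for MK-8722. Without the DMSO library of passage 7, 8 or 9 the torin1 call was lost too, and without that of passage 7 or 9 the MK-8722 call. In DKO the torin1 change was called without the DMSO library of passage 11 (1.01, adjusted p = 0.0367), a fit that kept the torin1 library of that passage and was unbalanced in passage. The genotype difference under MK-8722 was called without WT passage 11 (1.39) or DKO passage 8 (0.95) of that drug.

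**Figure D3:**
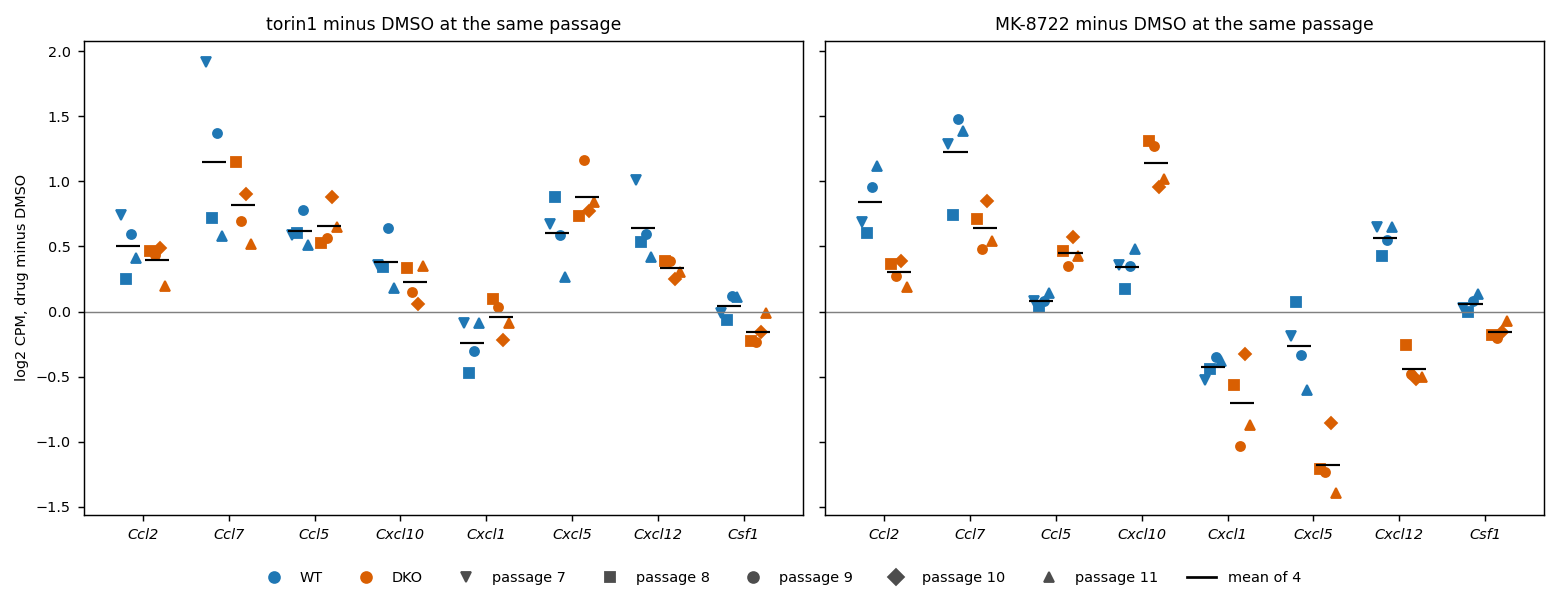
Drug minus DMSO at the same passage, in log2 CPM, for torin1 (left) and MK-8722 (right); each symbol is 1 pair of libraries, blue for WT and orange for DKO, and the bar is the mean of 4. Under MK-8722 *Cxcl12* is above 0 at every passage in WT (0.43 to 0.65) and below 0 at every passage in DKO (-0.52 to -0.26).

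At the level of single passages, 6 of the 8 genes were higher under torin1 at all 4 passages in WT and 1 was lower, where 38.2% of all genes tested were higher and 32.5% lower at every passage. In DKO the counts were 6 and 1, against 35.2% and 32.6%. Under MK-8722 they were 5 and 1 in WT, against 25.2% and 27.5%, and 4 and 4 in DKO, against 24.3% and 23.7%. The labels do not say that libraries of 1 passage came from 1 culture.

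*Cxcl12*, the stromal ligand of CXCR4, showed the largest genotype difference under DMSO of the 8 genes over all passages (without passage 11 in WT, *Cxcl10* had 2.68 against 2.26 on the log2 scale), and its response to MK-8722 had opposite signs in the genotypes. WT cells held 30.2, 32.5, 32.5 and 37.8 CPM under DMSO, 60.7, 47.0, 49.1 and 50.6 CPM under torin1 and 47.3, 43.7, 47.6 and 59.3 CPM under MK-8722. DKO cells held 161, 152, 157 and 138 CPM under DMSO, 211, 199, 187 and 170 CPM under torin1 and 135, 109, 110 and 97.5 CPM under MK-8722. Every DKO library lay above every WT library, and in each genotype the DMSO libraries overlapped with neither drug group. In DKO, MK-8722 was the lowest group, and in WT, DMSO was. *Cxcl12* was 4.57-fold higher in DKO under DMSO (log2 2.19 ± 0.11, adjusted p = 4.42e-14), 3.70-fold under torin1 (1.89 ± 0.11, adjusted p = 4.01e-13) and 2.28-fold under MK-8722 (1.19 ± 0.10, adjusted p = 9.93e-10).

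Torin1 raised *Cxcl12* by 0.64 ± 0.10 (adjusted p = 1.3e-05) in WT and by 0.33 ± 0.10 (adjusted p = 0.0071) in DKO. MK-8722 raised it by 0.57 ± 0.10 (adjusted p = 0.00019) in WT, and in DKO the level fell by 0.43 ± 0.10 (adjusted p = 0.00409). The response to MK-8722 thus differed by -1.0 ± 0.15 between genotypes (95% interval -1.31 to -0.70, adjusted p = 5.8e-05), and it stayed between -1.10 and -0.90 when any 1 library was left out and at -0.97 without passage 11 in WT. The torin1 response differed by -0.31 ± 0.15 (adjusted p = 0.17), which was called with the block (-0.31, adjusted p = 0.0173). None of the other *Cxcl12* calls changed when 1 library was left out.

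Transcript estimates divided *Cxcl12* into 4 models. The one named Cxcl12-202 (coding length 267) made up 60.4% of the gene's TPM over all libraries, Cxcl12-203 (coding length 279) 25.0%, Cxcl12-201 (coding length 357) 7.92% and the retained intron Cxcl12-204 6.62%. The ratio between them was much the same in WT and DKO under DMSO, with Cxcl12-202 at 63.9% ± 3.9 and 62.2% ± 1.7 (SD, n = 4). Under torin1, Cxcl12-203 was at 27.7% ± 2.5 in WT and 27.9% ± 1.2 in DKO, beside 22% ± 2.4 and 23.9% ± 1.6 under DMSO. All 4 models were higher in DKO than in WT, Cxcl12-202 at a mean of 57.9 against 13.4 TPM under DMSO. Such shares are estimates from short reads over shared exons and were not tested.

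**Figure D4:**
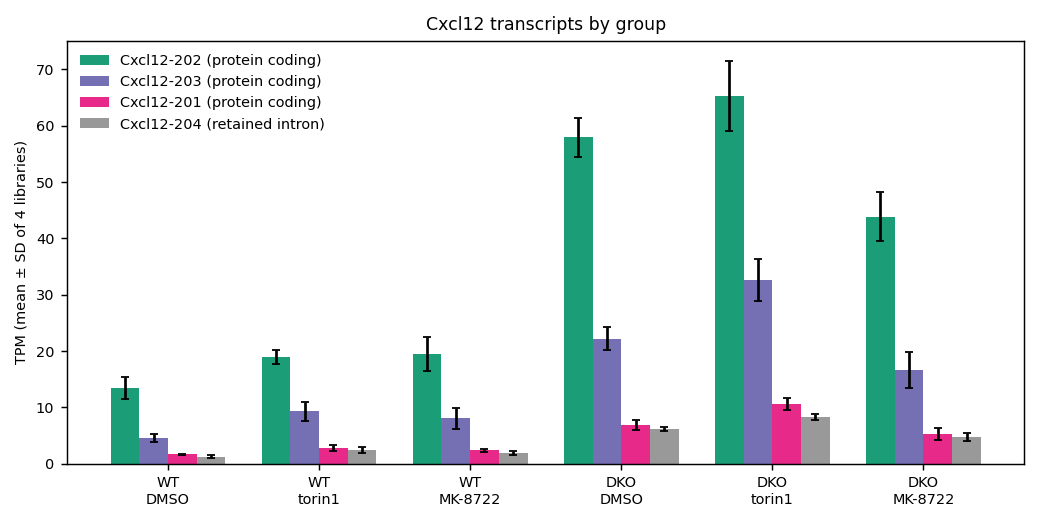
TPM of the 4 annotated *Cxcl12* transcripts by group; bars are means of 4 libraries and whiskers 1 SD. The main model, Cxcl12-202, stands at 13.4, 18.9 and 19.4 TPM in WT and at 57.9, 65.3 and 43.9 TPM in DKO under DMSO, torin1 and MK-8722, and the other models follow the same order in DKO.

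*Csf1*, the macrophage growth factor, differed between genotypes and was not called for either drug. In WT the libraries held 392, 371, 349 and 431 CPM under DMSO, 389, 355, 379 and 466 CPM under torin1 and 399, 371, 368 and 474 CPM under MK-8722. In DKO they held 772, 742, 658 and 599 CPM under DMSO, 661, 631, 591 and 594 CPM under torin1 and 683, 643, 591 and 569 CPM under MK-8722. Every DKO library was above every WT library. *Csf1* was 1.80-fold higher in DKO under DMSO (log2 0.84 ± 0.09, adjusted p = 5.06e-08), 1.56-fold under torin1 (adjusted p = 2.54e-06) and 1.54-fold under MK-8722 (adjusted p = 3.91e-06). Drug effects were within 1.2-fold in both genotypes, at 0.04 and 0.06 in WT and -0.16 and -0.16 in DKO. With the block, the DKO values had adjusted p = 0.000233 and 0.000884 but stayed under the fold required.

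Of 7 annotated *Csf1* transcripts, Csf1-201 and Csf1-203 have the same coding length (1656) and made up 32.6% and 21.3% of its TPM over all libraries. Their balance differed with torin1: Csf1-203 was 19.3% ± 1.6 of the gene in WT DMSO and 24% ± 1.5 in WT torin1, and 19.1% ± 1.3 and 29.1% ± 1.6 in DKO. Under MK-8722 it was 17.9% ± 0.68 in WT and 18.4% ± 0.70 in DKO, near the vehicle. The ranges under torin1 (22.2% to 25.9% in WT and 27.7% to 30.6% in DKO) lay above those under DMSO (17.6% to 21.5% and 18% to 20.7%). Csf1-202, with a coding length of 771, stayed between 15.6% and 18.5% in the group means. No test was made of these shares.

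*Cxcl1* and *Cxcl5*, the neutrophil attractants, were both scarce and moved differently. *Cxcl1* in WT stood at 3.84, 3.81, 3.48 and 3.61 CPM under DMSO, 3.60, 2.72, 2.80 and 3.40 CPM under torin1 and 2.65, 2.79, 2.72 and 2.76 CPM under MK-8722. In DKO it stood at 2.77, 2.33, 2.61 and 2.78 CPM under DMSO, 2.97, 2.39, 2.23 and 2.61 CPM under torin1 and 1.85, 1.10, 2.06 and 1.48 CPM under MK-8722. MK-8722 was below the vehicle at every passage in both genotypes. *Cxcl1* fell by 0.43 ± 0.14 on the log2 scale (adjusted p = 0.0182) in WT and by 0.69 ± 0.15 (adjusted p = 0.00213) in DKO, and the difference of these responses was not called (-0.26, 95% interval -0.68 to 0.16). Under torin1 the values were -0.23 ± 0.13 (adjusted p = 0.139) and -0.04 ± 0.14 (adjusted p = 0.83). It was the 1 gene of the 8 that was lower in DKO under DMSO (-0.49 ± 0.14, adjusted p = 0.00365), and it was lower under MK-8722 (-0.75 ± 0.15, adjusted p = 0.00013). Under torin1 the difference of -0.30 ± 0.14 (adjusted p = 0.0641) was called without the torin1 library of WT passage 8 or 9 or of DKO passage 8 (-0.36, -0.35 and -0.38).

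*Cxcl5* rose with torin1 and, in DKO, fell with MK-8722. WT held 1.78, 1.19, 1.87 and 2.92 CPM under DMSO, 2.88, 2.26, 2.86 and 3.53 CPM under torin1 and 1.56, 1.26, 1.47 and 1.90 CPM under MK-8722. DKO held 4.82, 3.49, 4.19 and 4.76 CPM under DMSO, 8.08, 7.91, 7.19 and 8.60 CPM under torin1 and 2.04, 1.44, 2.27 and 1.76 CPM under MK-8722. In DKO the 3 treatments did not overlap, with torin1 highest and MK-8722 lowest. In WT every torin1 library also lay above every MK-8722 library, while the DMSO libraries overlapped with both drug groups. Under torin1 *Cxcl5* rose 1.47-fold in WT (log2 0.56 ± 0.20, adjusted p = 0.0184) and 1.84-fold in DKO (0.88 ± 0.18, adjusted p = 0.000189). The WT call was lost without the torin1 library of passage 11 (0.44, adjusted p = 0.073) or the DMSO library of passage 8 (0.39, adjusted p = 0.0785), and it was kept without all WT libraries of passage 11 (0.71, adjusted p = 0.00209). Under MK-8722 the change was -1.20 ± 0.20 (adjusted p = 0.000193) in DKO and -0.34 ± 0.21 (adjusted p = 0.248) in WT.

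The difference between these MK-8722 responses of *Cxcl5*, -0.86 ± 0.29, had an adjusted p of 0.0879. It was called with the block (-0.87, adjusted p = 0.00446) and without passage 11 in WT (-1.01, adjusted p = 0.0173). Without the single DMSO library of WT passage 11 it was called too (-1.13, adjusted p = 0.00828). That last fit kept the WT MK-8722 library of passage 11, so it was unbalanced in passage. Between genotypes, *Cxcl5* was 2.20-fold higher in DKO under DMSO (adjusted p = 2.22e-05) and 2.75-fold under torin1 (adjusted p = 2.43e-07). Under MK-8722 the difference was 0.28 (95% interval -0.17 to 0.73, adjusted p = 0.272).

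*Ccl5* and *Cxcl10*, the T cell attractants, had the highest ratios of passage 11 to the other passages in WT under each treatment. *Ccl5* was at 18.7, 16.6, 19.4 and 54.9 CPM in WT under DMSO, 28.2, 25.2, 33.3 and 78.1 CPM under torin1 and 19.8, 16.9, 20.5 and 60.5 CPM under MK-8722. DKO libraries held 24.7, 32.2, 17.9 and 32.9 CPM under DMSO, 35.5, 47.7, 32.9 and 51.6 CPM under torin1 and 34.0, 41.1, 26.6 and 44.2 CPM under MK-8722. Passage 11 in WT exceeded every other library of the gene, and torin1 lay above DMSO at all passages. The torin1 response of *Ccl5* was 0.58 ± 0.42 (adjusted p = 0.237) in WT and 0.64 ± 0.42 (adjusted p = 0.207) in DKO. With the block it was 0.62 ± 0.05 (adjusted p = 1.8e-09) and 0.65 ± 0.05 (adjusted p = 8.78e-10), and without passage 11 it was called in WT with no block as well (0.67 ± 0.21, adjusted p = 0.00969). Without the single DMSO library of that passage it was called as well (1.18, adjusted p = 0.016). That fit kept the torin1 library of passage 11 (78.1 CPM), so it was unbalanced in passage. At matched passages the WT change was 0.51 to 0.78.

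MK-8722 left *Ccl5* near the vehicle in WT (0.09 ± 0.06 with the block, adjusted p = 0.205) and raised it in DKO with the block (0.45 ± 0.05, adjusted p = 3.11e-06), where the fit without a block gave 0.44 ± 0.42 (adjusted p = 0.523). This difference of the responses was called with the block (0.35, adjusted p = 0.00298) and not without it (0.34, adjusted p = 0.865). The genotypes did not differ detectably in *Ccl5* over all passages, by -0.03, 0.02 and 0.31 on the log2 scale under DMSO, torin1 and MK-8722 with an SE of 0.41 to 0.42. Without passage 11 in WT but with it in DKO, *Ccl5* was higher in DKO by 0.56 (adjusted p = 0.0182), 0.53 (adjusted p = 0.0168) and 0.93 (adjusted p = 0.00032). Without the MK-8722 library of passage 11 alone, the last difference was 0.93 (adjusted p = 0.0464).

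*Cxcl10* was at 7.47, 7.69, 9.30 and 39.6 CPM in WT under DMSO, 9.59, 9.74, 14.5 and 44.9 CPM under torin1 and 9.61, 8.68, 11.9 and 55.3 CPM under MK-8722. In DKO it was at 29.1, 60.7, 46.8 and 72.2 CPM under DMSO, 36.7, 67.4, 48.8 and 92.0 CPM under torin1 and 72.3, 147, 90.7 and 147 CPM under MK-8722. All WT libraries of passages 7, 8 and 9 lay below all DKO libraries, and those of passage 11 lay within the DKO range under DMSO and torin1 and below it under MK-8722. *Cxcl10* was 3.24-fold higher in DKO under DMSO (log2 1.69 ± 0.62, adjusted p = 0.0207), 3.1-fold under torin1 (1.64 ± 0.61, adjusted p = 0.0226) and 5.33-fold under MK-8722 (2.41 ± 0.62, adjusted p = 0.00171). Without passage 11 in WT but with it in DKO, the values were 6.43-fold, 5.41-fold and 11.3-fold, with an SE of 0.34 to 0.35 on the log2 scale.

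The DMSO call of *Cxcl10* was lost without the WT library of passage 7, 8 or 9 (1.45, 1.47 and 1.51) or the DKO library of passage 11 (1.5), and the torin1 call without the same 3 passages in WT (1.41, 1.41 and 1.51) or DKO passage 11 (1.37). No drug response of *Cxcl10* was called without the block, with an SE of 0.59 to 0.62. With it, MK-8722 raised the level by 1.14 ± 0.07 (adjusted p = 4.71e-10) in DKO and by 0.38 ± 0.10 (adjusted p = 0.00266) in WT, a difference of 0.76 ± 0.12 (adjusted p = 9.87e-05). Torin1 raised it in WT by 0.35 ± 0.09 (adjusted p = 0.00278), and the DKO value of 0.22 (adjusted p = 0.0101) was below the fold required. *Ccl5* and *Cxcl10*, which both rise in interferon-treated cells, had torin1 responses of 0.65 and 0.22 in DKO with the block, and the difference between these genes was not tested.

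*Il6* had 0 to 15 counts per library and was not tested. Its summed counts were 9, 13 and 10 in the 4 WT libraries under DMSO, torin1 and MK-8722, and 15, 21 and 42 in the 4 DKO libraries. Under MK-8722 the DKO libraries held 6, 13, 8 and 15 counts, and the WT libraries 1, 1, 2 and 6. The DKO MK-8722 group had the highest mean, at 0.39 CPM ± 0.17 (SD, n = 4), and overlapped with DKO torin1 (3, 11, 3 and 4 counts) and with DKO DMSO (3, 4, 1 and 7 counts).

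Over the 24 libraries, *Cxcl12* and *Csf1* varied most alike of all pairs (Pearson r = 0.92 of log2 CPM), followed by *Ccl7* and *Cxcl10* (r = 0.86). Once the group means were taken out, *Cxcl10* and *Ccl5* (r = 0.94) and *Ccl2* and *Ccl7* (r = 0.94) led, and *Cxcl12* with *Csf1* was at 0.66. *Cxcl1* was close to 0 with *Ccl2*, *Ccl5* and *Ccl7* in these deviations (-0.04, -0.08 and -0.06). The libraries share their passages and group means, so these values are descriptions. Among all genes tested outside the set, *Cxcl10* was most like *Trim26* (r = 0.98) and *Rsad2* (r = 0.98), *Ccl5* most like *Slfn8* (r = 0.95) and *H2-Q4* (r = 0.94), and *Cxcl12* most like *Klf6* (r = 0.98) and *Thumpd1* (r = 0.98). *Csf1* was most like *Fbln5* (r = 0.96) and *Vgll3* (r = 0.96), *Cxcl5* like *Ezr* (r = 0.95) and *Gm15222* (r = 0.93), *Ccl7* like *Fyco1* (r = 0.94) and *Stx4a* (r = 0.92), *Ccl2* like *Igfbp7* (r = 0.88) and *Scd1* (r = 0.79), and *Cxcl1* like *Prmt5* (r = 0.87) and *Wdhd1* (r = 0.87).

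Of 20 interferon-responsive genes, all tested, 4 were higher in DKO under DMSO, 3 under torin1 and 9 under MK-8722, and 0 were lower. With passage as a block 18, 18 and 20 were higher, and without passage 11 in WT 19, 19 and 20. Their median log2 difference was 1.68, 1.57 and 1.95, beside 1.69, 1.64 and 2.41 for *Cxcl10*. *Rsad2*, an antiviral radical SAM enzyme, was 3.28 higher under DMSO (adjusted p = 0.00311), and the transcription factor *Stat2* was higher as well (1.82, adjusted p = 0.0148). For the drugs 0 of the 20 were called without the block, in edgeR or DESeq2, and 1 had an unadjusted p under 0.05, under MK-8722 in DKO. With the block, 17 rose and 1 fell under torin1 in WT and 13 and 1 in DKO, while 6 rose and 0 fell under MK-8722 in WT and 17 and 0 in DKO. The response to MK-8722 was larger in DKO for 8 of the 20 with the block and smaller for 0, and that to torin1 was smaller for 6 and larger for 0. The shares of all genes called with all libraries are those given for the members above, for example 23.5% higher in DKO under DMSO, or 24% with the block. No such share is given for the fit without passage 11 in WT. That fit kept passage 11 in DKO and left out the WT libraries in which all 20 genes were above other passages.

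Among 29 other chemokine genes 10 were tested, and 3 rose and 2 fell under torin1 in WT and 4 and 2 in DKO, while under MK-8722 0 rose and 1 fell in WT (0 and 3 with the block) and 1 and 0 in DKO. Under torin1 these counts are near the shares over all genes (26.6% higher and 20.5% lower in WT). Under MK-8722 the shares were 10.3% and 5.87% in WT (11.6% and 7.29% with the block) and 5.47% and 3.21% in DKO. Next to *Cxcl5* on chromosome 5, *Ppbp*, which encodes another CXCR2 ligand, rose under torin1 by 1.13 in WT (adjusted p = 0.00961) and was 1.88 higher in DKO under DMSO (adjusted p = 4.93e-05), as *Cxcl5* was. *Cxcl11*, beside *Cxcl10*, was not called in DKO against WT under DMSO (-0.70, adjusted p = 0.405), and *Cxcl9* had at most 2 counts in a library. In the Ccl cluster, *Ccl9* was lower in DKO under DMSO (-1.04, adjusted p = 0.00759), the opposite direction to *Ccl7*. Between genotypes, 3 of the 10 were higher and 4 lower under DMSO, 3 and 2 under torin1 and 3 and 2 under MK-8722. Over all genes, 23.5% were higher and 24.6% lower under DMSO, 24% and 27.8% under torin1 and 23.3% and 25.4% under MK-8722.

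The cells carried few of the matching receptors. Of 15 receptor genes 4 were tested, and *Ccr2* and *Cxcr3* had 0 counts in every library, *Cxcr4* at most 3 and *Cxcr2* at most 12. The signalling subunit *Il6st* ranged from 183 to 321 CPM. *Il6ra* was lower in DKO under all 3 treatments, by -0.35 (adjusted p = 0.0106) under DMSO and -1.27 (adjusted p = 1.59e-09) under MK-8722. *Ackr3*, the CXCL12 scavenger, was at 0.0384 to 5.45 CPM and lower in DKO under DMSO (-4.65, adjusted p = 2.27e-11), while *Cxcl12* was higher there.

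Of 19 NF-kB subunits, kinases and inhibitors, 5 rose and 3 fell under torin1 in WT and 6 and 5 in DKO. Under MK-8722, 0 rose and 5 fell in WT and 1 and 0 in DKO, and 3 were higher and 6 lower in DKO under DMSO. The inhibitors *Nfkbie* (-0.75, adjusted p = 3.93e-05) and *Tnip1* (-0.73, adjusted p = 8.46e-10) were among those lower. Over all genes, 26.6% rose and 20.5% fell under torin1 in WT and 23% and 20.2% in DKO. Under MK-8722, 10.3% rose and 5.87% fell in WT and 5.47% and 3.21% in DKO. In DKO under DMSO, 23.5% were higher and 24.6% lower. Of 17 genes of the IL6 family and STAT3 signalling 16 were tested, with 6 higher and 4 lower in DKO under DMSO, 4 and 4 called under torin1 and 5 and 0 under MK-8722 in WT, and 6 and 5, and 3 and 3, in DKO. Its member *Cebpd*, a transcription factor of inflammatory genes, was higher in DKO under DMSO by 1.62 (adjusted p = 1.21e-12).

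Among 10 factors of cytokine mRNA decay, 0 rose and 6 fell under torin1 in WT, and 2 rose and 6 fell in DKO, while 3 rose and 0 fell under MK-8722 in each genotype. Over all genes, 20.5% and 20.2% fell under torin1 in WT and DKO, and 10.3% and 5.47% rose under MK-8722. *Elavl1*, which encodes an RNA-stabilising protein, fell by 0.88 (adjusted p = 4.07e-14) in WT under torin1, and *Zfp36l2* (-0.59, adjusted p = 3.75e-05) and *Zfp36l1* (-0.31, adjusted p = 0.00663), which speed decay, also fell. In DKO under torin1 *Zfp36l1* rose instead (0.45, adjusted p = 0.000209). In DKO against WT under DMSO, 5 of the 10 were higher and 1 lower, against 23.5% and 24.6% over all genes. Of 12 upstream inflammatory cytokines 2 were tested: *Tslp* was 3.13 higher in DKO under DMSO (adjusted p = 2.55e-14), and *Il34* was not called there. *Il1b* had at most 1 count, *Tnf* at most 2 and *Ifnb1* at most 5 in any library.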

How the data were processed

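Polyadenylated RNA of 24 libraries was sequenced in pairs of 52 bases. The authors ran nf-core/rnaseq with STAR and salmon on GRCm38 and deposited salmon's estimated counts, not scaled for depth or length, and TPM per transcript. Estimated counts were rounded, filtered with filterByExpr (minimum count 10), scaled by TMM and fitted with edgeR 4.0.16 (quasi-likelihood, trended dispersion) as 1 mean per group, with Benjamini-Hochberg adjustment over 15401 genes. CPM is TMM-scaled. TPM entered no test. Genes, lists and alternatives were chosen with earlier results of these data known. All members are named, and from each list at most 3 called genes of at least 1 log2 CPM; genes of the Ccl and Cxcl clusters were named by position, and receptors and cytokines of very low counts after their values were seen.

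Alternatives were no filter and a stricter one, DESeq2 size factors, library size alone, DESeq2, voom, edgeR 4's form, glmTreat, adjusted p alone, fits of single pairs of groups, blocks by passage or by replicate number, and libraries left out. Passage was blocked within genotype for drug comparisons and across genotypes otherwise. The libraries of a group were of different passages, and the labels do not say whether these are separate derivations. The p-values thus measure the spread between libraries of different passages, which includes technical spread. The pairs of replicates differed beyond sampling noise (chi-square per degree of freedom 3.87 to 39.7 in 36 pairs). The biological coefficient of variation was 10.7% with 18 residual degrees of freedom. The methods name a batch removed with limma; the labels give 1 batch, and none was removed here. Loci are from GENCODE on GRCm38.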

Additional observations from a re-analysis of the deposited data

Results flagged for a closer look

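In 7 of 48 groups of 4 libraries, 1 library was far from the others by the gap that Dixon defined, where chance would set apart about 1 in 20. All 7 were WT libraries of passage 11. These libraries had been singled out before, the groups share libraries, and the genes vary together, so the number of such groups is a description and no independent support. *Cxcl10* stood at 39.6 CPM under DMSO, 44.9 CPM under torin1 and 55.3 CPM under MK-8722, and *Ccl5* at 54.9, 78.1 and 60.5 CPM. *Ccl2* stood at 141 CPM under torin1.

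The response of *Cxcl12* to MK-8722 differed between genotypes by -1.0 on the log2 scale (edgeR, adjusted p = 5.8e-05), up in WT and down in DKO at each of 4 passages.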

How the results depend on the processing

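Over all alternatives, 1560 values kept their direction and their side of the threshold, 54 passed it, 43 lost it and 55 turned direction. DESeq2's Wald test called 2 genes for the difference in MK-8722 response. glmTreat, which tests against the fold itself, called 1 gene each for torin1 in WT, MK-8722 in WT, torin1 in DKO and MK-8722 in DKO. Fits of only the groups compared called 2 for MK-8722 in WT and 4 for torin1 in DKO. Passage as a block called 6 for torin1 in WT, 5 for torin1 in DKO, 7 for MK-8722 in DKO, and 1 and 5 for the differences in torin1 and MK-8722 response. Without the WT libraries of passage 11 the difference in MK-8722 response had 2, and with the block as well, a combination chosen after seeing the data, 6 for torin1 in WT and 1 and 5 for the differences. The 6 genes above other passages in WT passage 11 numbered 6 under all 4 alternatives tried.

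Leaving out 1 library gave 1 to 4 genes for torin1 in WT, 2 to 4 for MK-8722 in WT, 2 to 3 for torin1 in DKO and 3 for MK-8722 in DKO. Between genotypes it gave 5 to 6 under DMSO, 4 to 6 under torin1 and 4 to 6 under MK-8722, and for the differences in response 0 for torin1 and 1 to 2 for MK-8722.

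Replicate numbers did not pair the libraries: over all genes, deviations of libraries with the same number correlated by -0.41 to 0.66 (median 0.04, 13 of 60 pairs over 0.1). Among other groups of its genotype, the best match of 22 of 24 libraries was of the same passage. Among other groups of either genotype, a wider search, the best match of 7 of 24 had the same number. With the replicate number as a block, 6 genes were called between genotypes under MK-8722 (*Ccl7* added, 0.86), 6 under DMSO and 5 under torin1, and 3, 4, 2 and 3 for torin1 in WT, MK-8722 in WT, torin1 in DKO and MK-8722 in DKO.

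Direction turned for values that were not called in the fit as reported, and 1 of them was called once turned, *Ccl5* between genotypes under DMSO without WT passage 11 (adjusted p = 0.0182). For DKO against WT, *Ccl5* under DMSO was 0.10 with voom, 0.095 with the replicate number and 0.11 with passage as a block, 0.56 without WT passage 11 and 0.011 without DKO passage 8, which was added after seeing the data. *Ccl5* under torin1 was -0.010 with the strict filter and -0.10 with library size alone, and *Ccl2* under DMSO was 0.15 without WT passage 11 and 0.069 without DKO passage 8. The difference in torin1 response of *Ccl5* was -0.0080 with library size alone, -0.056 with the replicate number as a block, -0.030 without WT passage 11, and -0.015 with the passage block as well. Without 1 library, DKO against WT ranged from -0.38 to 0.15 for *Ccl2* and from -0.20 to 0.56 for *Ccl5* under DMSO, and from -0.15 to 0.54 for *Ccl5* under torin1. Responses to MK-8722 in WT ranged from -0.53 to 0.69 for *Ccl5*, from -0.025 to 0.12 for *Csf1* and from -0.68 to 1.39 for *Cxcl10*. Responses to torin1 ranged from -0.044 to 0.10 for *Csf1* and from -0.52 to 1.27 for *Cxcl10* in WT, and from -0.12 to 0.018 for *Cxcl1* and from -0.038 to 0.43 for *Cxcl10* in DKO. Differences in torin1 response ranged from -0.35 to 0.18 for *Ccl2*, from -0.54 to 0.56 for *Ccl5* and from -1.05 to 0.74 for *Cxcl10*, and in MK-8722 response from -0.26 to 0.96 for *Ccl5* and from -0.27 to 1.80 for *Cxcl10*. The cause was not tested.

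Depth limited *Il6*, which had too few counts to test.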
